A study of Mus musculus with 16 samples.

Results

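The subject is a set of 35 genes that encode the transcription factor NRF2, its regulators and enzymes of the antioxidant defence, measured by RNA sequencing in mouse bone marrow-derived macrophages. The 35 were taken by symbol and matched to the Ensembl identifiers of the count files through GENCODE M21. All 35 of 35 were among the 12612 genes that passed the filter on low counts, out of 54838 gene identifiers. Each of the 4 groups held 4 libraries: TMP195+TNFα, TPCA-1+TNFα, TNFα and DMSO. TMP195, given at 5 µM, inhibits class IIa histone deacetylases, and TPCA-1, given at 500 nM, inhibits IKK2, the kinase that activates NF-κB; each was added 1 h before 50 ng/ml TNFα, an inflammatory cytokine, for 24 h. The third group received the same TNFα without an inhibitor, and the fourth is labelled DMSO, the solvent. The labels do not say whether cells given TNFα alone also received DMSO, so a difference in solvent between TNFα and DMSO cannot be told apart from TNFα. The cells of every group, the DMSO group included, came from mice of the genotype B6.129P2-Apoetm1Unc/J, which lack apolipoprotein E, on the strain label C57BL/6J. They were grown from marrow in medium with 15% L929-cell-conditioned medium, replated on day 7, and kept in medium without it before treatment. The labels give neither age nor sex, and do not say whether replicates were separate animals or cultures. The p-values therefore cover only library-to-library spread, which may be technical.

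NRF2, encoded by Nfe2l2, is held in the cytoplasm by KEAP1, which presents it for degradation. Electrophiles and oxidants that modify KEAP1, and the adaptor p62 (Sqstm1), which binds KEAP1, let NRF2 accumulate, enter the nucleus and bind antioxidant response elements together with a small MAF protein. Its known targets make glutathione, keep thioredoxin reduced, conjugate and export electrophiles and supply NADPH. In macrophages this programme limits the damage from the oxidants that the cells themselves produce, and the NADPH oxidase is their main source of superoxide.

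Counted reads ran from 18.6 to 31.6 (in units of 1e6) in 15 libraries, and TPCA-1+TNFα 2 stood apart with 7.49. In that library 44.0% of the reads did not map, and in the others 4.0% to 7.11% did not. For comparisons that include TPCA-1+TNFα, calls that change without that library are therefore named, as are called values of the 35 genes described that move by over 1.5 times. The other comparisons share the model with it. Without it 6 of the 35 genes were called for TMP195+TNFα against TNFα and 28 against DMSO, where all libraries gave 4 and 26. Of 12764 genes tested in that fit 1041 and 3909 were called, against 750 and 3463 of 12612 with all libraries. Apoe had 1 to 11 reads per library. All 10 macrophage markers had reads, and their summed level was 12617 to 18051 CPM (reads of a gene per 1e6 counted reads) with TMP195+TNFα, 12958 to 21209 with TPCA-1+TNFα, 17858 to 26048 with TNFα and 16611 to 25815 with DMSO. Lyz2 and Adgre1 made up most of these sums, and other markers had a different order of groups. Mrc1 was at 31.4 to 47.0, 8.24 to 21.2, 19.7 to 33.8 and 214 to 467 CPM in those groups, Fcgr1 at 76.05 to 179, 18.2 to 31.2, 104 to 163 and 229 to 308 CPM, and Csf1r at 889 to 1392, 305 to 638, 784 to 1058 and 477 to 694 CPM. Their part in the results was not tested. Of 11 neutrophil markers 5, 6, 4 and 6 had a read in those groups, mostly Csf3r and, outside DMSO, S100a8, with sums of 92.5 to 125, 58.9 to 103, 146 to 187 and 54.1 to 94.2 CPM, and Ly6g and Elane were at 0 in all 16 libraries. Of 8 lymphocyte markers 6, 5, 4 and 5 had a read and the sums were 7.26 to 11.7, 27.2 to 62.1, 15.0 to 32.2 and 36.4 to 74.0 CPM, nearly all of it Ighm. The sums of 6 dendritic cell markers, of which 5 had a read in each group, were 275 to 404, 73.8 to 114, 258 to 408 and 294 to 345 CPM, nearly all of it Bst2. Those of 7 erythroid and megakaryocyte markers (3, 4, 3 and 3 with a read) were 1387 to 1763, 483 to 1065, 1269 to 1694 and 1133 to 1390.0 CPM, nearly all Pf4, with Hbb-bs and Alas2 at 0. Those of 7 stromal and endothelial markers (5, 4, 6 and 5 with a read) were 38.7 to 77.6, 29.8 to 48.2, 23.2 to 40.4 and 30.5 to 43.3 CPM, with Col3a1 at 0, and mast cell markers stayed at or below 0.391 CPM. Their part in the results was not tested. In bulk RNA, fewer cells of a type and less RNA per cell cannot be told apart.

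TNFα raised most of the set, whose members were chosen with earlier results of these data known. The shares called, here and below, therefore describe the list and do not test it. Against DMSO, 24 of 35 genes were higher and 0 lower after 24 h of TNFα, a share of 68.6%, where 23.4% of all genes tested were called, 10.9% higher and 12.4% lower (edgeR quasi-likelihood test, Benjamini-Hochberg adjusted p under 0.05). The median log2 fold change of the 35 genes was 0.97, and that of all genes tested was 0.0018. The rise took in 5 of 6 genes of glutathione synthesis and reduction, 6 of 6 of the thioredoxin and peroxiredoxin group, 4 of 6 of NADPH supply, 4 of 4 quinone and other reductases and effectors, 2 of 3 regulators, 2 of 5 of conjugation and export, and 1 of 5 of superoxide and peroxide removal. The genes that did not pass the test were Keap1, Glrx, Sod1, Cat, Gpx1, Gpx4, Gstp1, Mgst1, Ugdh, Tkt and Idh1. With the replicate number as a block, Mgst1 (adjusted p = 0.0195) and Tkt (adjusted p = 0.0195) were higher as well. Groups did not overlap for 24 of the 35 genes, against 27.2% of all genes.

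**Figure D1:**
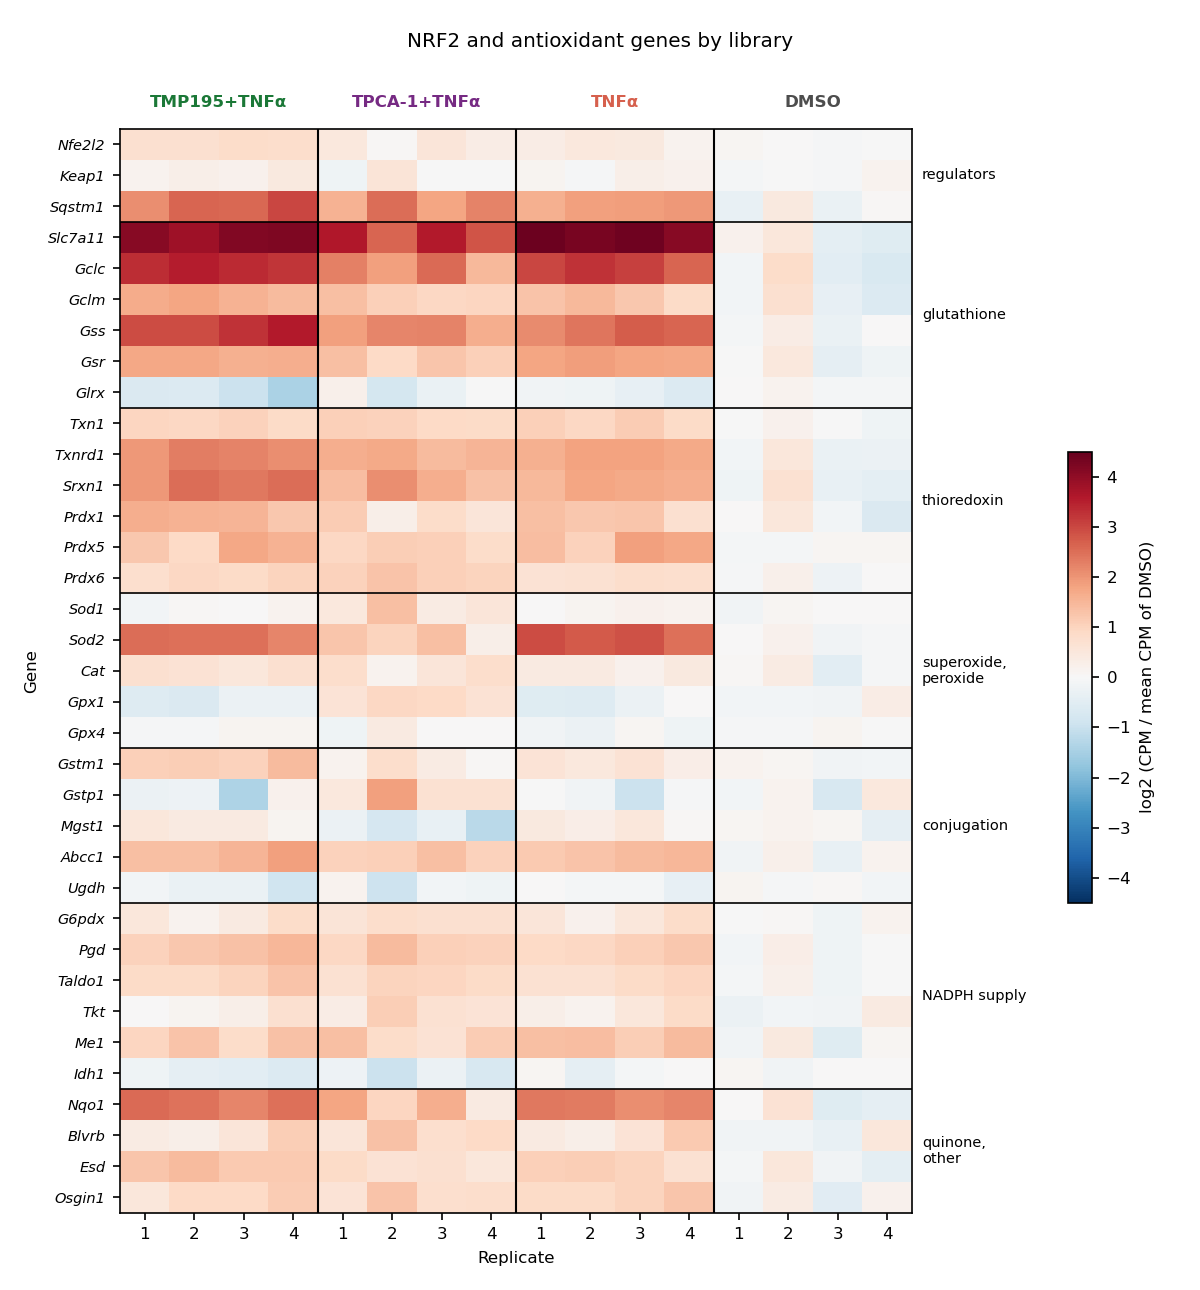
Heat map of the 35 genes (rows, by role) in the 16 libraries (columns, replicates 1 to 4 of TMP195+TNFα, TPCA-1+TNFα, TNFα and DMSO); colour is the log2 ratio of a library's CPM to the mean CPM of the DMSO libraries. Slc7a11, Gclc, Gss, Sod2 and Nqo1 are deep red in the TMP195+TNFα and TNFα libraries and paler in the TPCA-1+TNFα libraries, while Sod1, Gpx1, Gpx4, Ugdh and Idh1 stay near white with TNFα alone.

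In the model without a replicate term, 4 of the 35 genes changed with TMP195 relative to TNFα alone and 11 with TPCA-1. With TMP195+TNFα, 4 of 35 genes were higher than with TNFα alone and 0 lower (11.4%; 5.95% of all genes tested were called, 2.95% higher and 3% lower), and the median log2 fold change was 0.13 against 0.02 for all genes. The 4 were Nfe2l2, Sqstm1, Gss and Gstm1. With the replicate block 6 were higher and 1 lower, Txnrd1, Srxn1 and, below TNFα, Glrx being added. Of all 12612 genes, 1699 were called with the block, 872 higher and 827 lower. The count of 4 without the block was 1 or 2 when any one of TMP195+TNFα 2, 3 or 4 or of TNFα 1 to 4 was left out. Those fits had no block either, and with all libraries the block kept all 4 calls. Groups did not overlap for 10 genes (15% of all genes). With TPCA-1+TNFα, 4 genes were higher than with TNFα alone and 7 lower (31.4%; 19.4% of all genes, 9.67% higher and 9.72% lower), with a median of -0.09 against 0.02. Slc7a11, Gclc, Gsr, Prdx5, Sod2, Mgst1 and Nqo1 fell and Prdx6, Sod1, Gpx1 and Gstp1 rose. Without TPCA-1+TNFα 2 there were 2 higher and 6 lower, Gclc, Prdx6 and Gstp1 no longer passing. In that fit 1952 of 12764 genes were called, 919 higher and 1033 lower. Groups did not overlap for 10 genes (18.5% of all genes). Both comparisons use the same TNFα libraries. Set against each other, with their different doses, TMP195+TNFα was higher than TPCA-1+TNFα for 14 genes and lower for 4 (51.4%; 25.7% of all genes, 13.1% higher and 12.6% lower). Without TPCA-1+TNFα 2 it was higher for 14 and lower for 3, Prdx1, Gstp1 and Abcc1 being lost and Keap1 and Sqstm1 gained. In that fit 2868 of 12764 genes were called. Groups did not overlap for 18 genes (23.6% of all genes).

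Against DMSO, most of the set stayed higher under either inhibitor. TMP195+TNFα had 24 genes higher and 2 lower than DMSO (74.3%; 27.5% of all genes, 13.6% higher and 13.9% lower), and TPCA-1+TNFα had 28 higher and 2 lower (85.7%; 30.3% of all genes, 14.8% higher and 15.5% lower). The medians were 1.01 and 0.91 on the log2 scale, where those of all genes were -0.00013 and 0.01. Without TPCA-1+TNFα 2 the second count was 27 higher and 0 lower, Gstp1, Mgst1 and Idh1 no longer passing. In that fit 3352 of 12764 genes were called. With the replicate block TMP195+TNFα had 26 genes higher and 3 lower than DMSO, where 4622 of 12612 genes were called. Groups did not overlap for 28 genes with TMP195+TNFα (30.4% of all genes) and for 24 with TPCA-1+TNFα (26.2% of all genes).

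**Figure D2:**
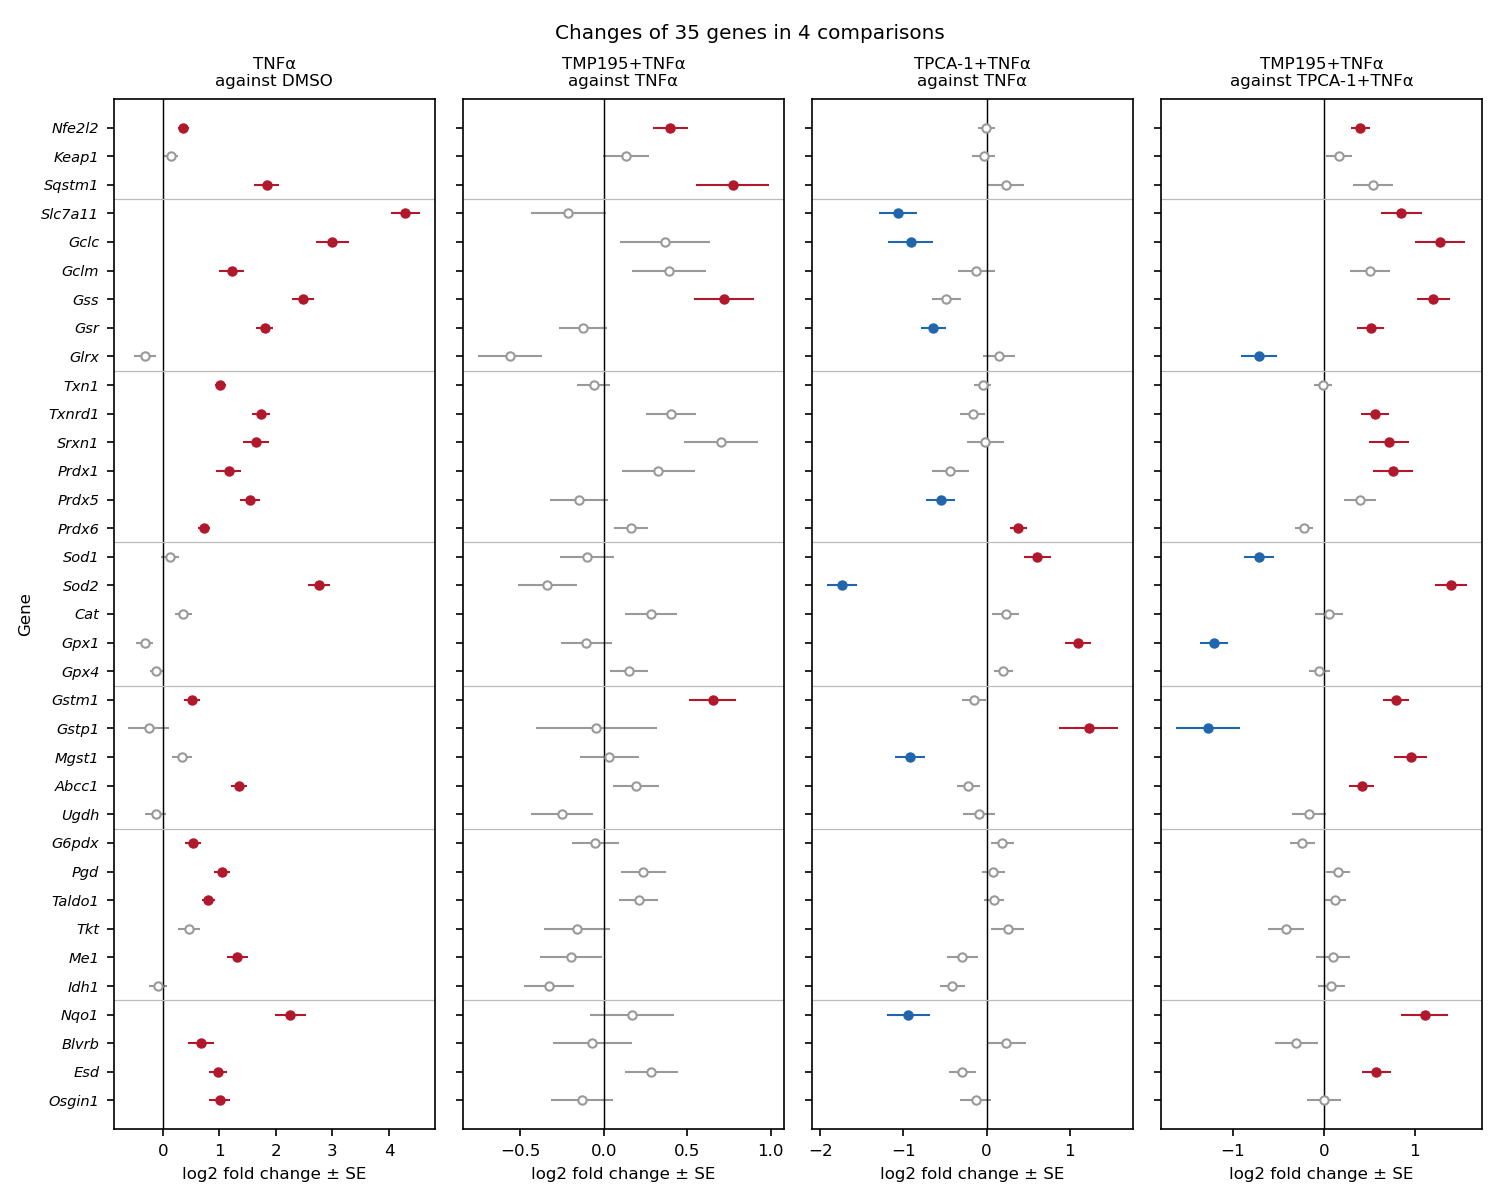
Log2 fold change ± SE (x axis, its scale differing between panels) of each of the 35 genes (y axis, by role) in 4 comparisons of 4 libraries against 4; filled red points are genes called higher, filled blue points genes called lower (adjusted p under 0.05), open grey points genes not called. TNFα against DMSO has 24 red points and 0 blue, TMP195+TNFα against TNFα 4 and 0, TPCA-1+TNFα against TNFα 4 and 7, and TMP195+TNFα against TPCA-1+TNFα 14 and 4.

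The core of the antioxidant response element, TGACNNNGC, was searched on both strands in promoter windows of RefSeq (GRCm38.p6) that run from 250 bases before to 50 bases after a gene's start. Of the 35 genes 31 had a window, and 11 of these 31 (35.5%) held a match, where 3781 of 27025 genes of the table (14.0%) did; the set has 43 windows, so a gene can have more than 1. Shown are the stretches upstream of the start for 3 genes that rose with TNFα and for Sod1, which did not pass that test, chosen after their values were seen and limited to bases that no GENCODE M21 exon covers. Capitals mark the match, which on the gene's strand reads GCNNNGTCA in all 4. It begins 134, 133, 92 and 56 bases before the gene start on which the window was placed. Txnrd1 also has windows at chr10:82833701-82834000 and chr10:82860091-82860390, which held no match. Its stretch shown here lies before a start inside the gene's span.
Gclm (chr3:122245307-122245556, plus strand, 250 bases): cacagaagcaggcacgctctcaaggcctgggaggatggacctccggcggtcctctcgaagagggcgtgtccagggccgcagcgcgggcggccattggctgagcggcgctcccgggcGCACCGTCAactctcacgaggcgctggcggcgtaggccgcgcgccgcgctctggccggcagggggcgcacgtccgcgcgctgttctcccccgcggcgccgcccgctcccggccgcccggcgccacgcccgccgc
Prdx1 (chr4:116685349-116685543, plus strand, 195 bases): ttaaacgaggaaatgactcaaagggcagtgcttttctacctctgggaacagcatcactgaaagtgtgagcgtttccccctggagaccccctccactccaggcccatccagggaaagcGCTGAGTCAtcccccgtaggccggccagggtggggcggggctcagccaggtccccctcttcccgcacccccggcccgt
Txnrd1 (chr10:82859009-82859178, plus strand, 170 bases): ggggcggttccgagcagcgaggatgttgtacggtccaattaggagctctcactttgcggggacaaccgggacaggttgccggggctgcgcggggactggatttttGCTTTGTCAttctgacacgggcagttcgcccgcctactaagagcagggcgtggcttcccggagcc
Sod1 (chr16:90220512-90220753, plus strand, 242 bases): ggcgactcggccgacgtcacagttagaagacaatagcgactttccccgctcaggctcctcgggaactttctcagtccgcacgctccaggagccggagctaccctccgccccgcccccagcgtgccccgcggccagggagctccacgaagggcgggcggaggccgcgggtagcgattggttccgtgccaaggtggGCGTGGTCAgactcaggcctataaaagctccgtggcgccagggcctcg
Of the genes with a match, G6pdx, Gclm, Me1, Nfe2l2, Pgd, Prdx1, Srxn1 and Txnrd1 rose with TNFα. Mgst1, Sod1 and Ugdh also held a match and did not pass without the replicate block. Slc7a11, Gss, Sod2 and Nqo1 rose and had no match in their windows, and Keap1, Cat and Gpx1 neither passed nor held one. Genes of both kinds thus occurred with and without a match, and a link to the rise was not tested. A match is a description of these letters, and binding was not measured.

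Of the 3 regulators, Nfe2l2 and Sqstm1 rose with TNFα and were higher again with TMP195. Nfe2l2 stood at 767, 766, 838 and 815 CPM in TMP195+TNFα libraries 1 to 4 and 651, 486, 679.6 and 596 CPM in TPCA-1+TNFα libraries 1 to 4. With TNFα alone the values were 595, 654, 637 and 531 CPM, and with DMSO 499, 474, 449.9 and 459 CPM. Nfe2l2 (ENSMUSG00000015839, GRCm38 chromosome 2, 75675513 to 75704641) was highest in the TMP195+TNFα libraries, which lay above all other libraries, and the TNFα libraries lay above those of DMSO. It was higher with TNFα than with DMSO (log2 0.36 ± 0.10, edgeR adjusted p = 0.0164) and with TMP195+TNFα than with TNFα (log2 0.40 ± 0.10, edgeR adjusted p = 0.0292). The first call was lost without TNFα 2, TNFα 3 or DMSO 3 (adjusted p up to 0.0556), and the second without TMP195+TNFα 1, TMP195+TNFα 2, TMP195+TNFα 3, TMP195+TNFα 4, TNFα 1, TNFα 3 or TNFα 4 (up to 0.107), and both without the filter on low counts (0.0517 and 0.0881). With TPCA-1+TNFα the gene did not differ from TNFα beyond its error (log2 -0.0026 ± 0.10, edgeR adjusted p = 0.99), and TMP195+TNFα was above TPCA-1+TNFα (log2 0.40 ± 0.10, edgeR adjusted p = 0.00837). Against DMSO, TPCA-1+TNFα was higher by log2 0.36 ± 0.10, edgeR adjusted p = 0.0143, lost without TPCA-1+TNFα 3 or DMSO 3 (up to 0.0554) and without the filter (0.0699).

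Keap1, the inhibitor of NRF2, passed in none of the 6 comparisons in edgeR with all libraries. Keap1 had 29.5, 31.6, 30.1 and 35.3 CPM with TMP195+TNFα and 22.7, 39.1, 26.2 and 25.7 CPM with TPCA-1+TNFα. TNFα alone gave 28.2, 25.2, 31.4 and 30.4 CPM and DMSO gave 24.5, 26.1, 25.3 and 29.0 CPM. The groups overlapped, apart from TMP195+TNFα against DMSO, and the change against DMSO was log2 0.14 ± 0.14, edgeR adjusted p = 0.555 for TNFα and 0.27 ± 0.14, edgeR adjusted p = 0.171 for TMP195+TNFα, the second passing in limma with sample weights (adjusted p = 0.0278). TMP195+TNFα against TPCA-1+TNFα gave log2 0.17 ± 0.14, edgeR adjusted p = 0.397, and passed as higher without TPCA-1+TNFα 2 (0.35 ± 0.10, adjusted p = 0.024). Sqstm1 reached 1831, 2611, 2530.1 and 3436 CPM in the TMP195+TNFα libraries and 1266, 2449.7, 1454 and 1988 CPM in the TPCA-1+TNFα libraries. In the TNFα libraries it was at 1303, 1548, 1581 and 1659.8 CPM and in the DMSO libraries 337, 581, 351 and 437 CPM. Sqstm1 (ENSMUSG00000015837, GRCm38 chromosome 11, 50199366 to 50210827), which encodes the autophagy adaptor p62, was above every DMSO library in every TNFα-treated library. It rose with TNFα (log2 1.84 ± 0.22, edgeR adjusted p = 9.79e-06) and was higher again with TMP195+TNFα (log2 0.77 ± 0.22, edgeR adjusted p = 0.0445). That second call was lost in 10 of 16 fits that left out a library (without TMP195+TNFα 2, TMP195+TNFα 3, TMP195+TNFα 4, TPCA-1+TNFα 4, TNFα 1, TNFα 2, TNFα 3, TNFα 4, DMSO 3 or DMSO 4; adjusted p up to 0.135). The TPCA-1+TNFα libraries overlapped those of TNFα (log2 0.23 ± 0.22, edgeR adjusted p = 0.476; 0.04 ± 0.21, adjusted p = 0.933 without TPCA-1+TNFα 2). TMP195+TNFα against TPCA-1+TNFα did not pass (log2 0.54 ± 0.22, edgeR adjusted p = 0.0767), and passed as higher without TPCA-1+TNFα 2 (0.73 ± 0.22, adjusted p = 0.0236).

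Slc7a11 and Gclc, genes of glutathione synthesis, had the largest rises of the 35 genes with TNFα. Slc7a11 encodes the cystine importer xCT, which supplies the cysteine for glutathione. Slc7a11 stood at 434, 362, 464 and 472 CPM in TMP195+TNFα libraries 1 to 4 and 311, 159, 306 and 181 CPM in TPCA-1+TNFα libraries 1 to 4. The TNFα group held 539, 493, 531 and 444 CPM and the DMSO group 29.2, 36.7, 18.9 and 17.8 CPM. Slc7a11 (ENSMUSG00000027737, GRCm38 chromosome 3, 49892526 to 50443614) was in every TNFα-treated library far above every DMSO library, and the TPCA-1+TNFα libraries lay below all TNFα libraries. Its log2 change was 4.29 ± 0.26, edgeR adjusted p = 6.03e-09 for TNFα against DMSO and -1.07 ± 0.23, edgeR adjusted p = 0.00317 for TPCA-1+TNFα against TNFα (-0.92 ± 0.23, adjusted p = 0.0111 without TPCA-1+TNFα 2). With TMP195+TNFα the change from TNFα did not pass (log2 -0.21 ± 0.23, edgeR adjusted p = 0.721), and TMP195+TNFα was above TPCA-1+TNFα (log2 0.85 ± 0.23, edgeR adjusted p = 0.0103).

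Glutamate-cysteine ligase, the rate-limiting enzyme, has a catalytic subunit, Gclc, and a modifier subunit, Gclm. Gclc averaged 797 ± 75.3 CPM with TMP195+TNFα, 328 ± 104 with TPCA-1+TNFα, 618 ± 112 with TNFα and 77.2 ± 39.9 with DMSO (SD, n = 4 each), and rose with TNFα (log2 2.9996 ± 0.29, edgeR adjusted p = 9.16e-07). It was lower with TPCA-1+TNFα than with TNFα (log2 -0.91 ± 0.27, edgeR adjusted p = 0.0257), a call lost without TPCA-1+TNFα 2, TPCA-1+TNFα 4, TNFα 1, TNFα 2 or TNFα 3 (adjusted p up to 0.0871). Gclm had 1382, 1508, 1296 and 1162 CPM with TMP195+TNFα and 1132, 923, 826 and 866 CPM with TPCA-1+TNFα. Cells given TNFα alone had 1079, 1197, 1013 and 789.6 CPM, and DMSO cells had 406, 727, 336 and 284 CPM. Gclm (ENSMUSG00000028124, GRCm38 chromosome 3, 122245557 to 122270732), whose promoter is printed above, was above DMSO in every library of the other groups, and DMSO 2 was the highest of the DMSO libraries. It rose with TNFα (log2 1.22 ± 0.22, edgeR adjusted p = 0.000557) and did not pass with TPCA-1+TNFα against TNFα (log2 -0.12 ± 0.22, edgeR adjusted p = 0.724).

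Gss encodes glutathione synthetase, the last step. Gss reached 100.4, 100.4, 126 and 159 CPM in the TMP195+TNFα libraries and 47.2, 60.4, 62.2 and 41.6 CPM in the TPCA-1+TNFα libraries. For TNFα alone it read 57.6, 69.6, 86.7 and 80.7 CPM, and for DMSO 12.3, 16.6, 10.8 and 13.3 CPM. All TMP195+TNFα libraries lay above all others, and all DMSO libraries below. Gss (ENSMUSG00000027610, GRCm38 chromosome 2, 155563181 to 155592810) rose with TNFα (log2 2.48 ± 0.19, edgeR adjusted p = 8.25e-08) and further with TMP195+TNFα (log2 0.72 ± 0.18, edgeR adjusted p = 0.0223). That further rise was lost without TMP195+TNFα 3, TMP195+TNFα 4, TNFα 1 or TNFα 2 (adjusted p up to 0.0795) and on counts without regard to strand (0.0642). Against TPCA-1+TNFα it was higher by log2 1.20 ± 0.18, edgeR adjusted p = 0.000112.

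Gsr, glutathione reductase, regenerates glutathione with NADPH. Gsr stood at 424, 426, 392 and 394 CPM in TMP195+TNFα libraries 1 to 4 and 331, 239, 306 and 269 CPM in TPCA-1+TNFα libraries 1 to 4. With TNFα alone the values were 442, 476, 437 and 428 CPM, and with DMSO 126, 176, 97.4 and 112 CPM. The TPCA-1+TNFα libraries lay between TNFα and DMSO without overlap on either side. Gsr rose with TNFα (log2 1.80 ± 0.15, edgeR adjusted p = 1.61e-07) and was lower with TPCA-1+TNFα (log2 -0.64 ± 0.15, edgeR adjusted p = 0.005; -0.57 ± 0.15, adjusted p = 0.0175 without TPCA-1+TNFα 2). Glrx had 465, 473, 370.0 and 269 CPM with TMP195+TNFα and 850.2, 420.3, 596 and 715 CPM with TPCA-1+TNFα. TNFα alone gave 661, 636, 559 and 474 CPM and DMSO gave 730.1, 809, 690.5 and 684 CPM. Glrx, glutaredoxin, which reduces mixed disulfides of glutathione and protein, ran the other way: every TMP195+TNFα library lay below every TNFα and every DMSO library. It was lower with TMP195+TNFα than with DMSO (log2 -0.89 ± 0.19, edgeR adjusted p = 0.00217), and against TNFα it did not pass (log2 -0.56 ± 0.19, edgeR adjusted p = 0.102), but was lower with the replicate block (adjusted p = 0.0373), without the filter on low counts (0.0498) and in limma with sample weights (0.00689).

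**Figure D3:**
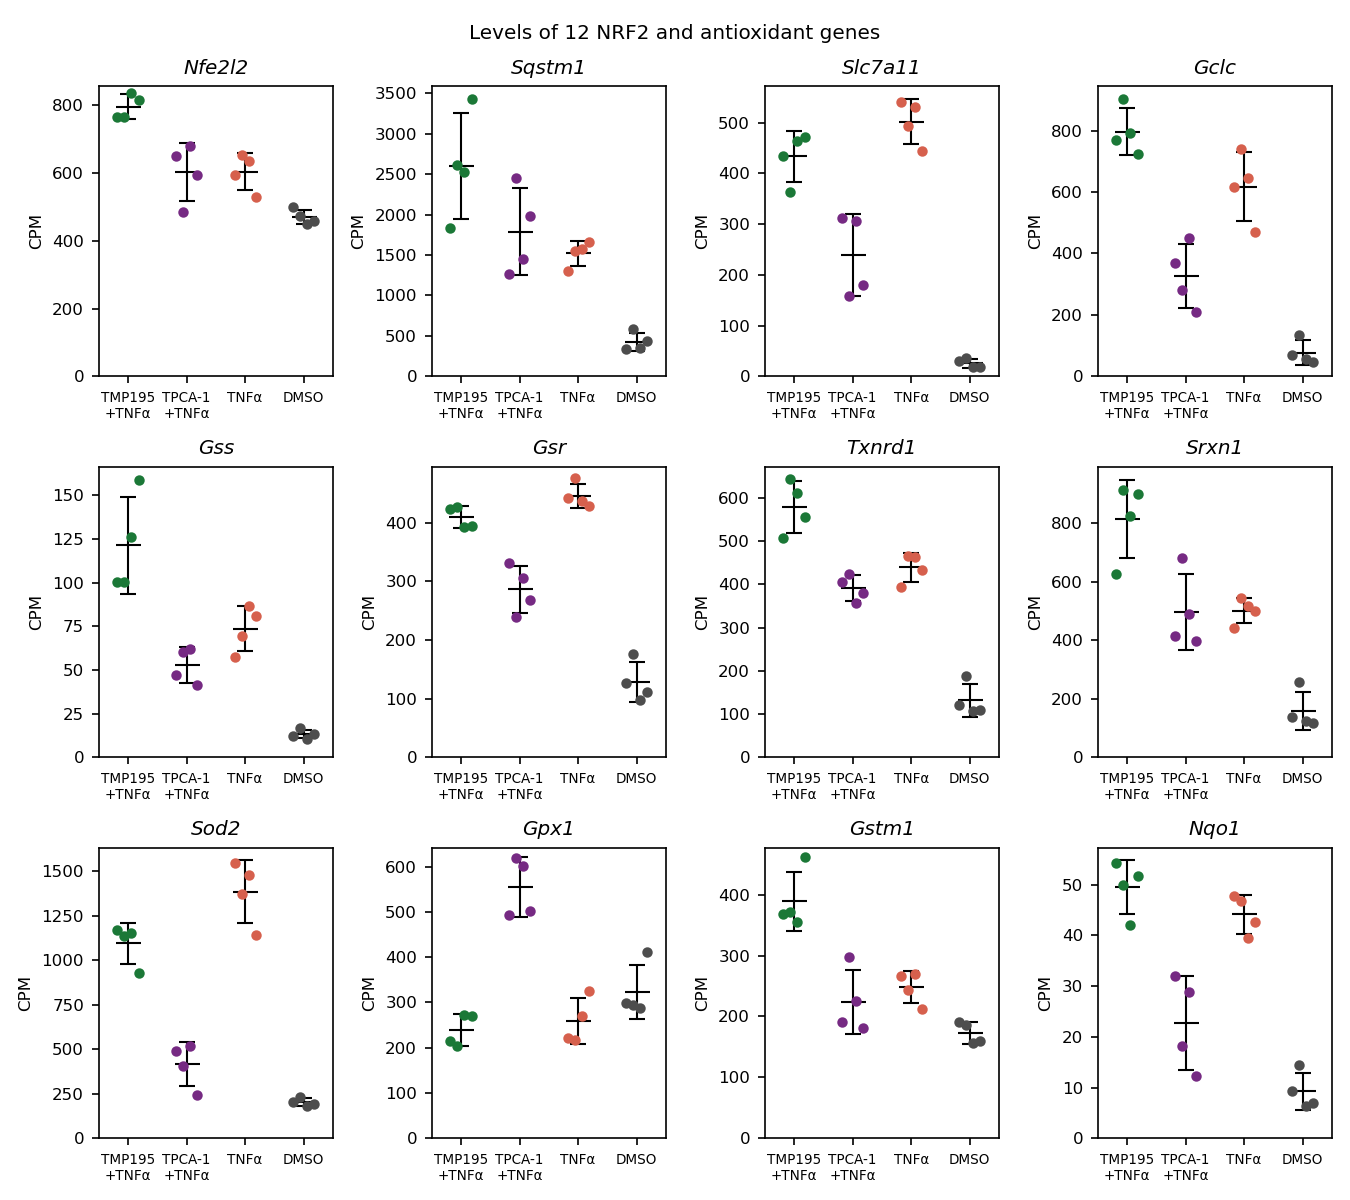
CPM (y axis, from 0) of 12 genes in each library (points) of TMP195+TNFα, TPCA-1+TNFα, TNFα and DMSO (x axis); bars are mean ± SD, n = 4, and each panel has its own scale. Gss is highest with TMP195+TNFα, Slc7a11, Gclc, Sod2 and Nqo1 are lower with TPCA-1+TNFα than with TNFα, and Gpx1 is highest with TPCA-1+TNFα.

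All 6 genes of the thioredoxin and peroxiredoxin group rose with TNFα, by 0.72 to 1.74 on the log2 scale. Txnrd1, thioredoxin reductase, keeps thioredoxin reduced. Txnrd1 reached 508, 644, 611 and 555 CPM in the TMP195+TNFα libraries and 406, 425, 357 and 379.6 CPM in the TPCA-1+TNFα libraries. In the TNFα libraries it was at 395, 466, 463 and 433 CPM and in the DMSO libraries 122, 189, 107 and 108 CPM. Every TMP195+TNFα library was above every TNFα library and every TPCA-1+TNFα library. Txnrd1 (ENSMUSG00000020250, GRCm38 chromosome 10, 82833951 to 82897712) rose with TNFα (log2 1.74 ± 0.15, edgeR adjusted p = 3.53e-07). TMP195+TNFα did not pass against TNFα in the edgeR fit of all libraries (log2 0.40 ± 0.15, adjusted p = 0.136). It passed as higher with the replicate block (adjusted p = 0.0346), in limma with sample weights (0.041) and in a fit of the 2 groups (0.0393). TMP195+TNFα was above TPCA-1+TNFα (log2 0.56 ± 0.15, edgeR adjusted p = 0.0104).

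Srxn1, sulfiredoxin, repairs overoxidized peroxiredoxins. Srxn1 stood at 624, 913, 823 and 899.8 CPM in TMP195+TNFα libraries 1 to 4 and 413, 681, 489.7 and 397 CPM in TPCA-1+TNFα libraries 1 to 4. The TNFα group held 441, 544, 518 and 499 CPM and the DMSO group 138, 256, 125 and 119 CPM. The TMP195+TNFα libraries lay above all TNFα libraries, and TPCA-1+TNFα overlapped TNFα. Srxn1 (ENSMUSG00000032802, GRCm38 chromosome 2, 152105516 to 152111376) rose with TNFα (log2 1.65 ± 0.23, edgeR adjusted p = 3.02e-05). TMP195+TNFα did not pass against TNFα in the edgeR fit of all libraries (log2 0.70 ± 0.22, adjusted p = 0.0702). It passed as higher with the replicate block (adjusted p = 0.00483), without the filter on low counts (0.0163) and in DESeq2 (0.033). It also passed in limma with sample weights (0.017) and in a fit of the 2 groups (0.0105). It was above TPCA-1+TNFα (log2 0.72 ± 0.22, edgeR adjusted p = 0.0232; lost without TMP195+TNFα 2, TPCA-1+TNFα 1 or TPCA-1+TNFα 4, up to 0.0761). Prdx1, a peroxiredoxin that removes hydrogen peroxide, had the highest level of the 35 genes per kilobase of exon, 6385 CPM per kb with TMP195+TNFα, 3762 with TPCA-1+TNFα, 5089.6 with TNFα and 2272 with DMSO. Prdx1 rose with TNFα (log2 1.16 ± 0.22, edgeR adjusted p = 0.000769). TMP195+TNFα was above TPCA-1+TNFα (log2 0.76 ± 0.22, edgeR adjusted p = 0.0168; lost without TPCA-1+TNFα 2 or TPCA-1+TNFα 4, up to 0.0552), and TPCA-1+TNFα was above DMSO (log2 0.73 ± 0.22, edgeR adjusted p = 0.0185; lost without TPCA-1+TNFα 1, DMSO 3 or DMSO 4, up to 0.06). Of the 50-base words of its longest transcript 10.9% also occur in other genes' transcripts, which makes its level less certain.

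Txn1, thioredoxin itself, averaged 1051 ± 54.1 CPM with TMP195+TNFα, 1060.3 ± 82.0 with TPCA-1+TNFα, 1096 ± 97.6 with TNFα and 542 ± 59.8 with DMSO (SD, n = 4 each). It rose with TNFα (log2 1.02 ± 0.10, edgeR adjusted p = 1.04e-06), and its log2 change from TNFα was -0.06 ± 0.10 with TMP195+TNFα and -0.05 ± 0.10 with TPCA-1+TNFα, neither passing. Prdx5 rose with TNFα (log2 1.54 ± 0.18, edgeR adjusted p = 6.03e-06) and was lower with TPCA-1+TNFα than with TNFα (log2 -0.55 ± 0.18, edgeR adjusted p = 0.036), a call lost without TPCA-1+TNFα 1, TPCA-1+TNFα 4, TNFα 3 or TNFα 4 (up to 0.116) and in limma with sample weights (0.0675). Prdx6 had 438, 493, 479 and 521 CPM with TMP195+TNFα and 533, 644, 546 and 522 CPM with TPCA-1+TNFα. Cells given TNFα alone had 407, 422, 456 and 443 CPM, and DMSO cells had 252, 307, 224 and 263 CPM. Prdx6, which also reduces phospholipid peroxides, was higher in every TPCA-1+TNFα library than in any other, and lower in every DMSO library, while TMP195+TNFα and TNFα overlapped. Prdx6 rose with TNFα (log2 0.72 ± 0.10, edgeR adjusted p = 4.8e-05) and further with TPCA-1+TNFα (log2 0.38 ± 0.10, edgeR adjusted p = 0.0159), and that step was lost without TPCA-1+TNFα 2 or TNFα 1 (up to 0.0608) and without the filter on low counts (0.0712).

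Among the genes of superoxide and peroxide removal, Sod2 rose and the others did not pass with TNFα. Sod2 encodes the mitochondrial superoxide dismutase, a known NF-κB target. Sod2 reached 1171, 1136, 1152 and 927 CPM in the TMP195+TNFα libraries and 488, 407, 521 and 244 CPM in the TPCA-1+TNFα libraries. For TNFα alone it read 1547, 1375, 1480.2 and 1145 CPM, and for DMSO 205, 234, 183 and 196 CPM. The TMP195+TNFα and TNFα libraries overlapped, and TPCA-1+TNFα lay below both and above DMSO. Sod2 (ENSMUSG00000006818, GRCm38 chromosome 17, 13006846 to 13040063) rose by log2 2.76 ± 0.19, edgeR adjusted p = 2.29e-08 with TNFα and changed by log2 -1.74 ± 0.18, edgeR adjusted p = 3.54e-06 with TPCA-1+TNFα against TNFα, and leaving out TPCA-1+TNFα 2 gave -1.74 ± 0.21, adjusted p = 2.79e-05. With TMP195+TNFα the change from TNFα was log2 -0.34 ± 0.18, edgeR adjusted p = 0.333, and TMP195+TNFα was above TPCA-1+TNFα by log2 1.40 ± 0.18, edgeR adjusted p = 2.41e-05.

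Sod1 and Gpx1 rose with TPCA-1+TNFα against TNFα. Sod1 stood at 229, 259, 258 and 279 CPM in TMP195+TNFα libraries 1 to 4 and 346, 638, 326 and 370.5 CPM in TPCA-1+TNFα libraries 1 to 4. With TNFα alone the values were 257, 274, 287 and 282 CPM, and with DMSO 226, 269, 255 and 256 CPM. Sod1, the cytosolic superoxide dismutase, was highest in TPCA-1+TNFα 2, and the other 3 TPCA-1+TNFα libraries were also above every TNFα library. It was higher with TPCA-1+TNFα than with TNFα (log2 0.61 ± 0.16, edgeR adjusted p = 0.0133; 0.33 ± 0.09, adjusted p = 0.0181 without that library), and in a fit of the 2 groups alone it did not pass (0.0647). Gpx1 had 216, 204, 272 and 269 CPM with TMP195+TNFα and 494, 619.9, 602 and 503 CPM with TPCA-1+TNFα. TNFα alone gave 221, 217, 270.2 and 326 CPM and DMSO gave 299, 295, 288 and 411 CPM. Gpx1 (ENSMUSG00000063856, GRCm38 chromosome 9, 108338903 to 108340343), a glutathione peroxidase, was in all 4 TPCA-1+TNFα libraries above all others. It rose with TPCA-1+TNFα against TNFα (log2 1.10 ± 0.15, edgeR adjusted p = 7.49e-05) and against DMSO (log2 0.78 ± 0.15, edgeR adjusted p = 0.000912), and TMP195+TNFα was below DMSO (log2 -0.43 ± 0.15, edgeR adjusted p = 0.0458; lost without TMP195+TNFα 1, TMP195+TNFα 2, TNFα 3, DMSO 1 or DMSO 4, up to 0.167). Cat, catalase, passed against DMSO with TMP195+TNFα (log2 0.65 ± 0.16, edgeR adjusted p = 0.00462) and with TPCA-1+TNFα (log2 0.59 ± 0.16, edgeR adjusted p = 0.00872). Gpx4, which protects membranes from lipid peroxidation, passed in none of the 6 comparisons, and 61.7% of its 50-base words are shared with other genes.

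Of the genes of conjugation and export, Gstm1 and Abcc1 rose with TNFα. Gstm1 reached 368, 372, 355 and 461 CPM in the TMP195+TNFα libraries and 191, 297, 225 and 182 CPM in the TPCA-1+TNFα libraries. In the TNFα libraries it was at 266, 243, 269 and 212 CPM and in the DMSO libraries 192, 186, 156 and 159 CPM. The TMP195+TNFα libraries lay above all other libraries. Gstm1 (ENSMUSG00000058135, GRCm38 chromosome 3, 108012255 to 108017973), a glutathione S-transferase, rose with TNFα (log2 0.52 ± 0.14, edgeR adjusted p = 0.0135) and further with TMP195+TNFα (log2 0.65 ± 0.14, edgeR adjusted p = 0.0119), the only TMP195+TNFα call among the 35 genes against TNFα that held in all 16 fits that left out a library. Of its 50-base words 23.1% are shared with other genes. Abcc1, an exporter of glutathione conjugates, rose with TNFα (log2 1.35 ± 0.14, edgeR adjusted p = 1.91e-06), and TMP195+TNFα was above TPCA-1+TNFα (log2 0.42 ± 0.14, edgeR adjusted p = 0.0356; lost without TMP195+TNFα 3, TMP195+TNFα 4, TPCA-1+TNFα 1, TPCA-1+TNFα 2 or TPCA-1+TNFα 4, up to 0.111, in limma, 0.0577, and in a fit of the 2 groups, 0.0553).

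Mgst1 stood at 221, 204, 206 and 170.1 CPM in TMP195+TNFα libraries 1 to 4 and 129.6, 91.1, 124 and 66.8 CPM in TPCA-1+TNFα libraries 1 to 4. The TNFα group held 211, 189.7, 222 and 159.9 CPM and the DMSO group 164, 174, 164 and 117 CPM. Mgst1, the microsomal transferase, was lower in all TPCA-1+TNFα libraries than in any TNFα library. It fell with TPCA-1+TNFα (log2 -0.93 ± 0.18, edgeR adjusted p = 0.00161; -0.88 ± 0.20, adjusted p = 0.0067 without TPCA-1+TNFα 2), and lay below DMSO too (log2 -0.59 ± 0.18, edgeR adjusted p = 0.0203; lost without TPCA-1+TNFα 2, TPCA-1+TNFα 4, DMSO 1, DMSO 2 or DMSO 3, up to 0.0596, and in a fit of the 2 groups, 0.0592). Gstp1 had 1.86, 1.92, 0.846 and 2.55 CPM with TMP195+TNFα and 3.13, 7.97, 3.57 and 3.60 CPM with TPCA-1+TNFα. Cells given TNFα alone had 2.22, 2.01, 1.15 and 2.17 CPM, and DMSO cells had 2.05, 2.46, 1.34 and 3.07 CPM. Gstp1, the pi-class transferase, rested on 16 to 74 reads per library, and 62.3% of its 50-base words are shared with other genes, so its values are uncertain. The TPCA-1+TNFα libraries were above all others. It was higher with TPCA-1+TNFα than with TNFα (log2 1.23 ± 0.35, edgeR adjusted p = 0.0219), a call lost without TPCA-1+TNFα 2 or TNFα 3 (up to 0.0826). It was higher than in DMSO (log2 0.97 ± 0.35, edgeR adjusted p = 0.0444; 0.62 ± 0.32, adjusted p = 0.173 without TPCA-1+TNFα 2), a call lost in 9 of 16 fits (without TMP195+TNFα 1, TMP195+TNFα 2, TPCA-1+TNFα 2, TPCA-1+TNFα 4, TNFα 1, TNFα 2, DMSO 1, DMSO 2 or DMSO 3; up to 0.173) and in a fit of the 2 groups (0.0546). TMP195+TNFα was below TPCA-1+TNFα (log2 -1.27 ± 0.36, edgeR adjusted p = 0.014; -0.92 ± 0.32, adjusted p = 0.0509 without TPCA-1+TNFα 2). Per kilobase of exon Gstp1 had the lowest level of the 35 genes, 1.16 CPM per kb with TMP195+TNFα, 2.95 with TPCA-1+TNFα, 1.22 with TNFα and 1.44 with DMSO. Ugdh, which makes the glucuronic acid donor, passed in none of the 6 comparisons in edgeR with all libraries. In limma with sample weights it was lower with TMP195+TNFα than with DMSO (adjusted p = 0.0268).

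NADPH drives the reductases above, and 4 of 6 genes of its supply rose with TNFα. The oxidative branch of the pentose phosphate pathway is encoded by G6pdx (log2 0.53 ± 0.14, edgeR adjusted p = 0.0093) and Pgd (log2 1.04 ± 0.14, edgeR adjusted p = 1.91e-05). Taldo1 of the non-oxidative branch rose too (log2 0.80 ± 0.12, edgeR adjusted p = 7.01e-05), as did malic enzyme Me1 (log2 1.32 ± 0.19, edgeR adjusted p = 5.49e-05). The transketolase Tkt did not pass in edgeR without the block (log2 0.46 ± 0.20, edgeR adjusted p = 0.107), and passed in limma with sample weights (adjusted p = 0.00802). G6pdx was also higher with TMP195+TNFα than with DMSO (log2 0.48 ± 0.14, edgeR adjusted p = 0.0151; lost without TMP195+TNFα 4 or DMSO 3, up to 0.0638). None of the 6 passed against TNFα with either inhibitor, their changes running from -0.33 to 0.24 with TMP195+TNFα and from -0.41 to 0.25 with TPCA-1+TNFα. Idh1 reached 102, 87.3, 84.2 and 76.8 CPM in the TMP195+TNFα libraries and 101, 59.9, 98.2 and 71.1 CPM in the TPCA-1+TNFα libraries. For TNFα alone it read 123, 88.4, 111 and 118 CPM, and for DMSO 124, 104, 119.6 and 119.5 CPM. Every DMSO library lay above every library with an inhibitor. Idh1, cytosolic isocitrate dehydrogenase, was lower with TPCA-1+TNFα than with DMSO (log2 -0.50 ± 0.15, edgeR adjusted p = 0.0194). That call was lost without TPCA-1+TNFα 2, TPCA-1+TNFα 4 or DMSO 1 (up to 0.0627). With TMP195+TNFα against DMSO, Idh1 did not pass in the edgeR fit of all libraries (adjusted p = 0.0512). It was lower with the replicate block (0.00774), in DESeq2 (0.0362), in limma with sample weights (0.0077) and in a fit of the 2 groups (0.0132). Shared 50-base words make up 26.5% in Me1, 10.9% in Taldo1 and 7.6% in G6pdx.

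Nqo1 encodes the quinone reductase often used to read NRF2 activity. Nqo1 stood at 54.4, 49.9, 42.1 and 51.7 CPM in TMP195+TNFα libraries 1 to 4 and 32.0, 18.1, 28.9 and 12.2 CPM in TPCA-1+TNFα libraries 1 to 4. With TNFα alone the values were 47.7, 46.9, 39.5 and 42.6 CPM, and with DMSO 9.30, 14.4, 6.35 and 6.92 CPM. Nqo1 (ENSMUSG00000003849, GRCm38 chromosome 8, 107388225 to 107403206) was in all DMSO libraries below all TNFα libraries, and TPCA-1+TNFα lay below all TNFα libraries and overlapped DMSO. The gene rose with TNFα (log2 2.26 ± 0.27, edgeR adjusted p = 8.38e-06) and was lower with TPCA-1+TNFα (log2 -0.94 ± 0.26, edgeR adjusted p = 0.0162; -0.86 ± 0.28, adjusted p = 0.0486 without TPCA-1+TNFα 2). TMP195+TNFα did not pass against TNFα (log2 0.17 ± 0.25, edgeR adjusted p = 0.832) and was above TPCA-1+TNFα (log2 1.11 ± 0.26, edgeR adjusted p = 0.00426). Of the other genes here, the esterase Esd rose with TNFα (log2 0.97 ± 0.16, edgeR adjusted p = 0.000217; 14.1% of 50-base words shared), and Osgin1, an oxidative stress growth inhibitor, rose too (log2 1.00 ± 0.19, edgeR adjusted p = 0.00069). Biliverdin reductase B, Blvrb, rose with TNFα (log2 0.67 ± 0.24, edgeR adjusted p = 0.0475), a call lost without TMP195+TNFα 3, TPCA-1+TNFα 3, TPCA-1+TNFα 4, TNFα 3, TNFα 4, DMSO 1, DMSO 2 or DMSO 3 (up to 0.174). The call was kept with the replicate block and all libraries, where 4 of 4 genes of this role were higher with TNFα. With TMP195+TNFα against DMSO, Blvrb did not pass in the edgeR fit of all libraries (adjusted p = 0.0669). It was higher with the replicate block (0.00845), without the filter on low counts (0.02), in DESeq2 (0.0436) and in limma with sample weights (0.0032). Mgst1 was higher there with the replicate block (0.00895) and did not pass in edgeR without it (0.145).

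A list of 80 related antioxidant genes had 68 members tested, with changes in both directions. With TNFα against DMSO 20 were higher and 8 lower (41.2%, with 23.4% of all genes tested), and the median log2 fold change was 0.23. With the replicate block 27 were higher and 10 lower, where 4034 of 12612 genes were called. Against TNFα, TMP195+TNFα had 3 higher and 7 lower (14.7%, with 5.95% of all genes). With the block there were 9 higher and 8 lower, where 1699 of 12612 genes were called. The count of 10 without the block was 5 or 6 when TMP195+TNFα 2, 3 or 4 or TNFα 1 was left out. TPCA-1+TNFα had 11 higher and 8 lower (27.9%; 19.4% of all genes), of which Ftl1, Akr1b3, Akr1c13 and Ggct were lost without TPCA-1+TNFα 2. TMP195+TNFα had 8 higher and 16 lower than TPCA-1+TNFα (35.3%; 25.7% of all genes), with Txnrd2 and Akr1c13 lost without that library. Hmox1 had 3426, 4536, 4478 and 4224 CPM with TMP195+TNFα and 3592, 4989.8, 3886 and 5957 CPM with TPCA-1+TNFα. TNFα alone gave 3399, 4492, 4247 and 3796 CPM and DMSO gave 1049, 1836, 1060.0 and 1116 CPM. Every DMSO library lay below all others. Hmox1, heme oxygenase, rose with TNFα (log2 1.65 ± 0.19, edgeR adjusted p = 6.03e-06) and passed with neither inhibitor against TNFα (log2 0.06 ± 0.19, edgeR adjusted p = 0.924 for TMP195+TNFα and 0.21 ± 0.19, edgeR adjusted p = 0.455 for TPCA-1+TNFα).

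With TNFα the smallest adjusted p among the rises belonged to the exporters Abcc4 (log2 1.15 ± 0.10, edgeR adjusted p = 4.14e-07) and Abcc5 (log2 0.93 ± 0.09, edgeR adjusted p = 1.04e-06), and the transferases Gsta3 (log2 2.00 ± 0.21) and Gstt1 (log2 3.03 ± 0.33). The falls were led by Mgst3 (log2 -1.40 ± 0.14, edgeR adjusted p = 8.55e-07) and the sestrin Sesn1 (log2 -1.14 ± 0.13, edgeR adjusted p = 4.62e-06), with Msrb2, a methionine sulfoxide reductase (log2 -1.12 ± 0.18), and Idh2 (log2 -0.56 ± 0.12). Txnip reached 162, 131, 153 and 182 CPM in the TMP195+TNFα libraries and 409.6, 316, 404 and 479.7 CPM in the TPCA-1+TNFα libraries. In the TNFα libraries it was at 296, 233, 266 and 333 CPM and in the DMSO libraries 342, 280.4, 324 and 385 CPM. Txnip, which binds and inhibits thioredoxin, was below every TNFα library in every TMP195+TNFα library. It fell with TMP195+TNFα (log2 -0.85 ± 0.14, edgeR adjusted p = 0.00237), and rose with TPCA-1+TNFα (log2 0.51 ± 0.14, edgeR adjusted p = 0.0177; lost without TPCA-1+TNFα 4, TNFα 2 or TNFα 3, up to 0.0784). Also lower with TMP195+TNFα than with TNFα were Akr1b10, Sesn1 and Abcc4 (log2 -0.46 ± 0.09, -0.67 ± 0.13 and -0.46 ± 0.10).

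Higher with TMP195+TNFα were Mgst3 (log2 0.80 ± 0.14, edgeR adjusted p = 0.00237), Slc3a2, the partner chain of xCT (log2 0.52 ± 0.13, edgeR adjusted p = 0.0203; lost without TMP195+TNFα 2, TMP195+TNFα 4, TNFα 1, TNFα 2 or TNFα 3, up to 0.0771, and in a fit of the 2 groups, 0.0519), and Idh2 (log2 0.47 ± 0.12, edgeR adjusted p = 0.0218; lost without TMP195+TNFα 2, TMP195+TNFα 3, TMP195+TNFα 4, TNFα 1, TNFα 2 or TNFα 3, up to 0.0688, and without the filter, 0.0532). Mt2 stood at 57.0, 79.7, 47.7 and 64.9 CPM in TMP195+TNFα libraries 1 to 4 and 130.3, 255, 143 and 196 CPM in TPCA-1+TNFα libraries 1 to 4. The TNFα group held 39.8, 43.2, 30.0 and 26.1 CPM and the DMSO group 17.4, 31.7, 13.2 and 12.6 CPM. Mt2, a metallothionein, which binds metals and scavenges radicals, was higher in every TPCA-1+TNFα library than in any other. It rose with TPCA-1+TNFα against TNFα (log2 2.38 ± 0.29, edgeR adjusted p = 1.53e-05) and Mt1 likewise (log2 2.25 ± 0.31, edgeR adjusted p = 6.3e-05), with Gstt3 (log2 1.502 ± 0.26) and Abcc3 (log2 0.99 ± 0.17). The falls with TPCA-1+TNFα were led by Abcc5 (log2 -0.77 ± 0.09, edgeR adjusted p = 1.33e-05), Lacc1 (log2 -1.36 ± 0.21), the NAD kinase Nadk (log2 -0.55 ± 0.10) and Gsta3 (log2 -0.94 ± 0.20).

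Between the inhibitors, TMP195+TNFα was above TPCA-1+TNFα for Abcc5, Gsta3, Pir and Mgst3 (log2 0.74 ± 0.09, 1.08 ± 0.20, 0.77 ± 0.17 and 0.59 ± 0.14) and below it for Txnip, Sesn1, Abcc3 and Gstt3 (log2 -1.36 ± 0.15, -1.15 ± 0.13, -1.197 ± 0.17 and -1.77 ± 0.26). Against DMSO, TMP195+TNFα had 25 related genes higher and 10 lower (51.5%; 27.5% of all genes), led by Slc3a2, Gsta3, the small MAF gene Maff and Abcc5 (log2 1.35 ± 0.13, 2.14 ± 0.21, 2.86 ± 0.29 and 0.89 ± 0.09) and by Sesn1, Akr1b10, Txnip and Msrb2 (log2 -1.81 ± 0.13, -0.73 ± 0.09, -1.09 ± 0.14 and -1.29 ± 0.18). Without TPCA-1+TNFα 2 the calls of Ggt5, Sesn2 and Nadk in TPCA-1+TNFα against DMSO were lost, while Mgst2 passed as higher (log2 1.14 ± 0.39, adjusted p = 0.0421) and Idh2 as lower (log2 -0.40 ± 0.11, adjusted p = 0.0123). With all libraries TPCA-1+TNFα had 28 higher and 7 lower (51.5%; 30.3% of all genes), led by Gstt1, Mt2, Hmox1 and Maff (log2 3.79 ± 0.33, 3.27 ± 0.30, 1.86 ± 0.19 and 2.77 ± 0.29) and by Mgst3, Gstk1, Msrb2 and Sesn1 (log2 -1.196 ± 0.14, -1.18 ± 0.16, -0.98 ± 0.18 and -0.65 ± 0.13). Maff averaged under 4 CPM in every group.

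**Figure D4:**
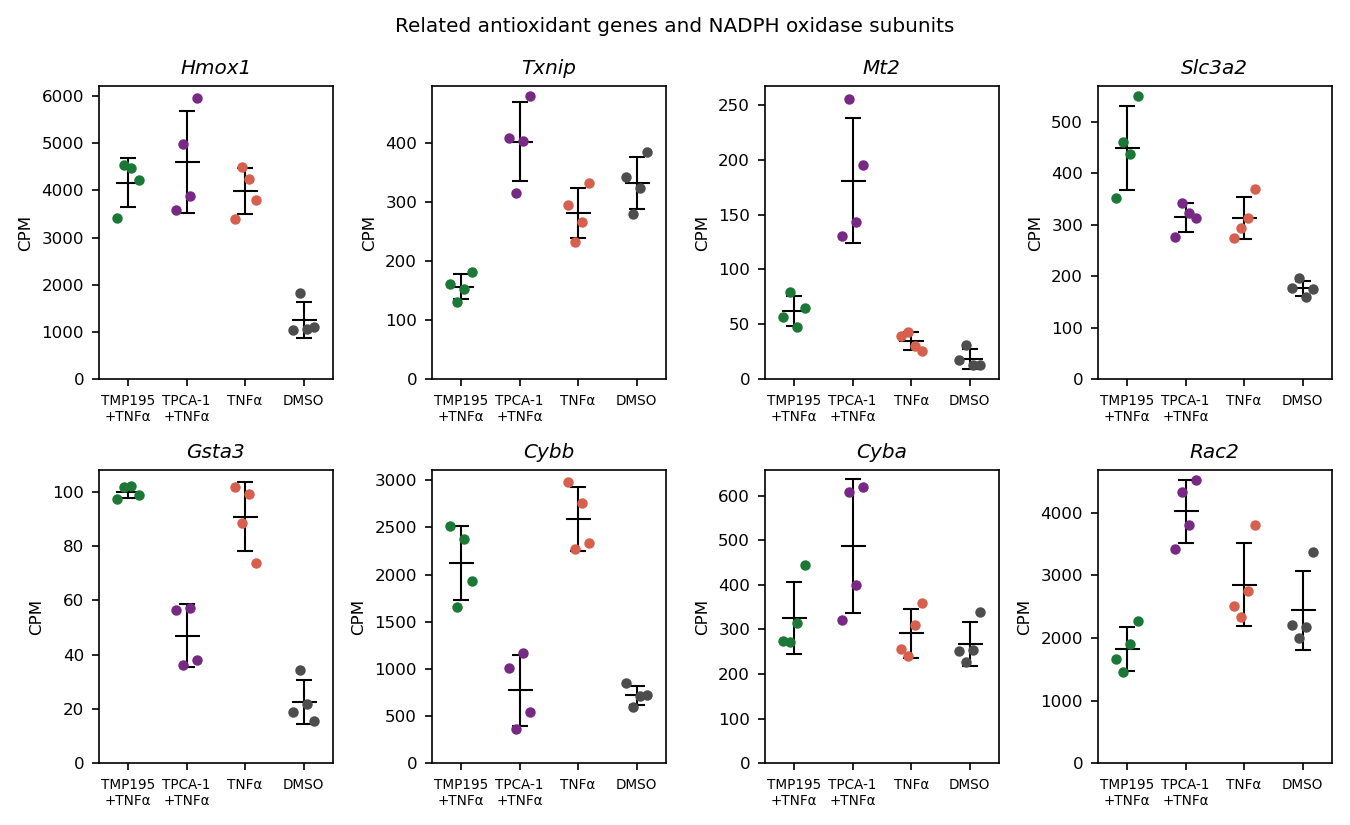
CPM (y axis, from 0) of 5 related antioxidant genes and 3 NADPH oxidase subunits in each library (points) of TMP195+TNFα, TPCA-1+TNFα, TNFα and DMSO (x axis); bars are mean ± SD, n = 4. Txnip is lowest with TMP195+TNFα, Mt2 is highest with TPCA-1+TNFα, and Cybb with TPCA-1+TNFα overlaps DMSO.

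The NADPH oxidase makes superoxide, and 7 of its genes were tested. With TNFα 3 of 7 were higher and 0 lower (42.9%; 23.4% of all genes). Cybb had 2517, 1659.9, 2379 and 1933 CPM with TMP195+TNFα and 1013, 366, 1167 and 540.2 CPM with TPCA-1+TNFα. Cells given TNFα alone had 2977, 2267, 2756 and 2337 CPM, and DMSO cells had 846, 598, 714 and 727 CPM. Cybb, the catalytic subunit gp91phox, was in all TMP195+TNFα and TNFα libraries above all TPCA-1+TNFα and DMSO libraries. It rose with TNFα (log2 1.84 ± 0.27, edgeR adjusted p = 6.52e-05), fell with TPCA-1+TNFα against TNFα (log2 -1.74 ± 0.27, edgeR adjusted p = 0.000198), and was higher with TMP195+TNFα than with TPCA-1+TNFα (log2 1.46 ± 0.27, edgeR adjusted p = 0.000681). The cytosolic subunit Ncf4 rose with TNFα as well (log2 0.46 ± 0.14, edgeR adjusted p = 0.0255; lost without TNFα 3, TNFα 4, DMSO 1, DMSO 2 or DMSO 3, up to 0.085).

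The membrane subunit Cyba was higher with TPCA-1+TNFα than with TNFα (log2 0.74 ± 0.21, edgeR adjusted p = 0.0215), a call lost without TPCA-1+TNFα 2, TPCA-1+TNFα 4, TNFα 1 or TNFα 2 (up to 0.0886). Rac2, the GTPase that activates the oxidase, was lower with TMP195+TNFα than with TNFα (log2 -0.65 ± 0.19, edgeR adjusted p = 0.0497), which was lost in 10 of 16 fits that left out a library (without TMP195+TNFα 1, TMP195+TNFα 2, TMP195+TNFα 3, TPCA-1+TNFα 3, TPCA-1+TNFα 4, TNFα 1, TNFα 3, TNFα 4, DMSO 1 or DMSO 3; up to 0.159) and on counts without regard to strand (0.0511). It was the 1 oxidase gene of 7 called there (14.3%, with 5.95% of all genes). With the replicate block 2 were lower, where 1699 of 12612 genes were called. TPCA-1+TNFα against TNFα had 1 higher and 1 lower (28.6%; 19.4% of all genes), and TMP195+TNFα against TPCA-1+TNFα 1 higher and 2 lower (42.9%; 25.7% of all genes). Rac2 was also lower with TMP195+TNFα than with TPCA-1+TNFα (log2 -1.14 ± 0.19, edgeR adjusted p = 0.000259), as was Ncf4 (log2 -0.42 ± 0.14, edgeR adjusted p = 0.036; lost without TMP195+TNFα 1, TMP195+TNFα 2, TMP195+TNFα 3, TPCA-1+TNFα 2, TPCA-1+TNFα 3 or TPCA-1+TNFα 4, up to 0.112, and without the filter, 0.0542). Against DMSO, TMP195+TNFα had 2 oxidase genes higher and 0 lower (28.6%, with 27.5% of all genes), Cybb among them (log2 1.56 ± 0.27). With the replicate block 3 were higher and 1 lower, where 4622 of 12612 genes were called. TPCA-1+TNFα had 4 higher and 0 lower (57.1%; 30.3% of all genes), among them Ncf4, Cyba and Rac2 (log2 0.74 ± 0.14, 0.86 ± 0.21 and 0.72 ± 0.19).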

How the data were processed

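RNA sequencing of total RNA gave 16 libraries in 4 groups. Reads were aligned with STAR 2.6.1d to GRCm38 (mm10), per the submitters' processing notes; the annotation release is not given in the sources used here. The authors deposited raw counts of uniquely mapped reads per gene, unnormalized, in 3 strand columns, of which column 4 was used, the other strand's column holding 3.19% to 3.72% of the reads on a strand. The 4 lines without a gene (21.0% to 53.4% of reads) stayed out of library sizes. Of 54838 identifiers 54809 matched GENCODE M21, and 1 related gene matched more than 1 identifier and has no value.

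Counts were scaled by TMM and filtered with filterByExpr in edgeR 4.0.16 (R 4.3.3), leaving 12612 genes, and tested with the 2-sided quasi-likelihood F test in 1 model of all 16 libraries, with 6 contrasts. P-values were adjusted by Benjamini-Hochberg over all genes, threshold 0.05. Levels are CPM ± SD, changes log2 fold changes ± SE. A floor of 3 counts is 0.0949 to 0.401 CPM; floors cover counting error only. The fit was tested on simulated data. Alternatives were DESeq2 size factors and test (1.42.0), limma 3.58.1 with sample weights, no filter, unstranded counts, only the 2 groups compared, each library left out, and the replicate block. Same-number libraries correlated in their deviations from group means at 0.27 to 0.68 in contrasts without TPCA-1. Every pair was above 0.1, so the numbers were taken to pair those samples. With TPCA-1 the range was -0.04 to 0.51. A low value does not show that samples are unpaired, so pairing there is open. Counts and p-values are from the model without a replicate term unless the replicate block or another alternative is named. The fits that left out a library had no replicate term either, so calls lost there do not take the pairing into account. With the block and all 16 libraries, no call among the 35 genes was lost in any of the 6 comparisons.

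Members and lists were chosen with earlier results of these data known. Values in every library are given for Nqo1, Slc7a11, Gclm, Srxn1, Txnrd1, Nfe2l2, Keap1 and Sqstm1, and for up to 4 members per direction with the smallest adjusted p against TNFα or DMSO; of the related and NADPH oxidase genes, up to 4 per direction are named, plus Hmox1, Txnip and Cybb. Mt2's values in every library, and genes named because a call was lost, were chosen after their values were seen. Promoter windows are from RefSeq (GRCm38.p6). Values of some single genes outside the set of 35 are not reported here.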

Additional observations from a re-analysis of the deposited data

Results flagged for a closer look

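Single libraries that stood far from the other 3 of their group, past the 95% limit of Dixon's test, were found in 9 of 152 groups of gene levels and 4 of 16 groups of library measures, where chance gives about 1 in 20. Srxn1 was at 256 CPM in DMSO 2 (119 to 138 in the others) and Hmox1 at 1836 CPM in the same library (1049 to 1116). In DMSO 4, Gpx1 was at 411 CPM (288 to 299) and Blvrb at 859 CPM (488 to 546). Replicate 4 was also the highest TNFα library for Gpx1 (326 CPM) and Blvrb (1393 CPM), and the highest TMP195+TNFα library for Blvrb (1315 CPM). Gpx1 was highest in TMP195+TNFα 3 (272 CPM), and both genes in TPCA-1+TNFα 2 (619.9 and 1522.5 CPM) within those groups. In TMP195+TNFα 4, Sod2 was at 927 CPM (1136 to 1171) and Gstm1 at 461 CPM (355 to 372). Abcc1 was at 593 CPM in TPCA-1+TNFα 3 (474 to 493). In TPCA-1+TNFα 2, Sod1 was at 638 CPM (326 to 370.5) and Gstp1 at 7.97 CPM (3.13 to 3.60). That library had 7.49 counted reads in units of 1e6 (20.4 to 21.0 in the other 3), 44.0% unmapped (4.88% to 5.76%), 6.69% multimapped (11.1% to 11.8%) and 1.69% without a feature (3.36% to 3.47%).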

How the results depend on the processing

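No called value reversed under any alternative run. The count of the 35 genes called stayed within 1.5 times its value in 5 of the 6 comparisons. For TMP195+TNFα against TNFα it was 4, and 7 in limma with sample weights, 7 with the replicate block and 1 to 6 when single libraries were left out (1 or 2 without TMP195+TNFα 2, 3 or 4 or any TNFα library). There the related genes numbered 10, 17 with the replicate block and 5 to 11 with a library left out. The NADPH oxidase genes numbered 1, 2 in limma, 2 with the block, 0 on unstranded counts and 0 to 1 with a library left out. In TPCA-1+TNFα against TNFα they numbered 2, 4 with the block and 1 to 3 with a library left out (1 without TPCA-1+TNFα 2 or 4 or TNFα 1 or 2). In TMP195+TNFα against TPCA-1+TNFα they numbered 3, 5 in DESeq2, 5 in limma, 5 with the block and 2 to 5 with a library left out (5 without TMP195+TNFα 4 or TPCA-1+TNFα 1). In TMP195+TNFα against DMSO they numbered 2, 5 in limma, 4 with the block and 2 to 3 with a library left out. Over all genes, TMP195+TNFα against TNFα gave 750 calls, 1209 in DESeq2, 1778 in limma, 1699 with the block, and 446, 496 and 485 without TMP195+TNFα 3, TNFα 1 and TNFα 4. TPCA-1+TNFα against TNFα gave 2446, 3835 with the block and 1551 in a fit of the 2 groups. In contrasts with TPCA-1, where it is open whether equal numbers pair the samples, the block gave 13, 22 and 31 calls among the 35 genes, against 11, 18 and 30 without it. Over all genes the block gave 3835, 4645 and 5185 calls there, against 2446, 3247 and 3820. The cause of these changes was not tested. TPCA-1+TNFα 2 has the least depth.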
